A study of Mus musculus with 6 samples.

Results

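Lysosomes are acidic organelles that break down material taken up by endocytosis, phagocytosis and autophagy. Their hydrolases are made in the endoplasmic reticulum, and most are tagged with mannose 6-phosphate and delivered through endosomes. Many remove a particular sugar, sulfate, acyl or phosphate group, and others cut proteins or DNA. A coat of membrane glycoproteins bounds the organelle, and channels and transporters in it release the products. Macrophages are known for high degradative capacity, while dendritic cells are known for slower proteolysis that spares peptides for presentation to T cells.

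The genes described here are 31 lysosomal hydrolases, hydrolase cofactors and membrane proteins, listed by name and function, with earlier results of these data known. All 31 had a probe set with that single gene symbol, among 19938 genes tested. By role, 10 are glycosidases, 5 are sulfatases (enzymes that remove sulfate), 6 are lipid enzymes or lipid carriers, 7 are membrane proteins and 3 are other hydrolases. The data are 6 arrays (Affymetrix Mouse Gene 1.0), 3 of cells labelled dendritic and 3 of cells labelled macrophage. Both populations were unstimulated and came from bone marrow of tibia and femur of C57B/6 mice, kept for 6 days with GM-CSF (granulocyte-macrophage colony-stimulating factor, a myeloid growth factor) at 20 ng/ml. The sources used here state neither how the populations were separated nor whether each replicate is its own mouse or culture, so p-values measure the spread between these arrays, which may be technical.

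Values are deposited log2 values, in which a difference of 1 is 2-fold. Differences are dendritic minus macrophage means, and "lower by" gives its size. A gene was called when limma's adjusted p (Benjamini-Hochberg over all genes tested) was under 0.05. Probe sets differ in affinity, so the 31 genes are not ranked by level; levels are set against other probe sets only as a rough guide to dim and bright. In bulk RNA, fewer cells of a type and less RNA per cell cannot be told apart.

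The labels were set against marker genes. The mean of 11 measured macrophage markers, among them Csf1r, Adgre1 and Mertk, was 4.77 to 4.91 on the dendritic arrays and 9.71 to 10.10 on the macrophage arrays, where the array medians were 4.79 to 4.96. Of 13 dendritic markers 9 were higher in the dendritic population and Itgax was lower, while H2-Ab1, H2-Eb1 and Cd74 were not called. The largest differences among the 9 were those of Fscn1 (6.45) and Ccr7 (5.30). Cd83, also higher, averaged 11.12 in the dendritic and 6.63 in the macrophage population. How mature the dendritic cells were, and its part in the lysosomal differences, was not tested. Lists for B cells, T and NK cells, mast cells with basophils and eosinophils, and erythroid cells had mean levels between 3.64 and 4.66 on every array, and of their members only Cd79a was called (0.81). Such means hide single genes. Prg2, of the list with eosinophils, read 6.60, 5.15 and 6.30 on dendritic and 8.37, 4.35 and 6.41 on macrophage arrays. Neutrophil markers averaged 5.92 to 7.05 on dendritic and 6.22 to 7.57 on macrophage arrays, with Csf3r (-2.93) and Mpo (-0.74) the called ones among 12. Single neutrophil markers averaged between 3.72 and 10.37 in the dendritic and between 3.86 and 10.56 in the macrophage population, with S100a8 and S100a9 the highest.

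Of the 31 lysosomal genes, 25 were lower in the dendritic population, none was higher and 6 were not called. Over all genes tested, 11.6% were called lower and 9.98% higher. The median difference of the 31 genes was -1.18, against 0.03 for all genes. At least 2-fold lower were 19 of the 31, against 5.82% of all genes. For 25 of the 31 every dendritic array lay below every macrophage array, which held for 16.7% of all genes. Among the 8585 genes at least as bright as the dimmest of the 31 (a mean of 5.55), 22.0% were called lower. Under 18 alternatives 23 to 26 were lower and none higher, and 23 of the 25 called genes kept their call in each of them. A block for the replicate number gave 26 lower, against 13.9% of all genes in that fit.

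**Figure D1:**
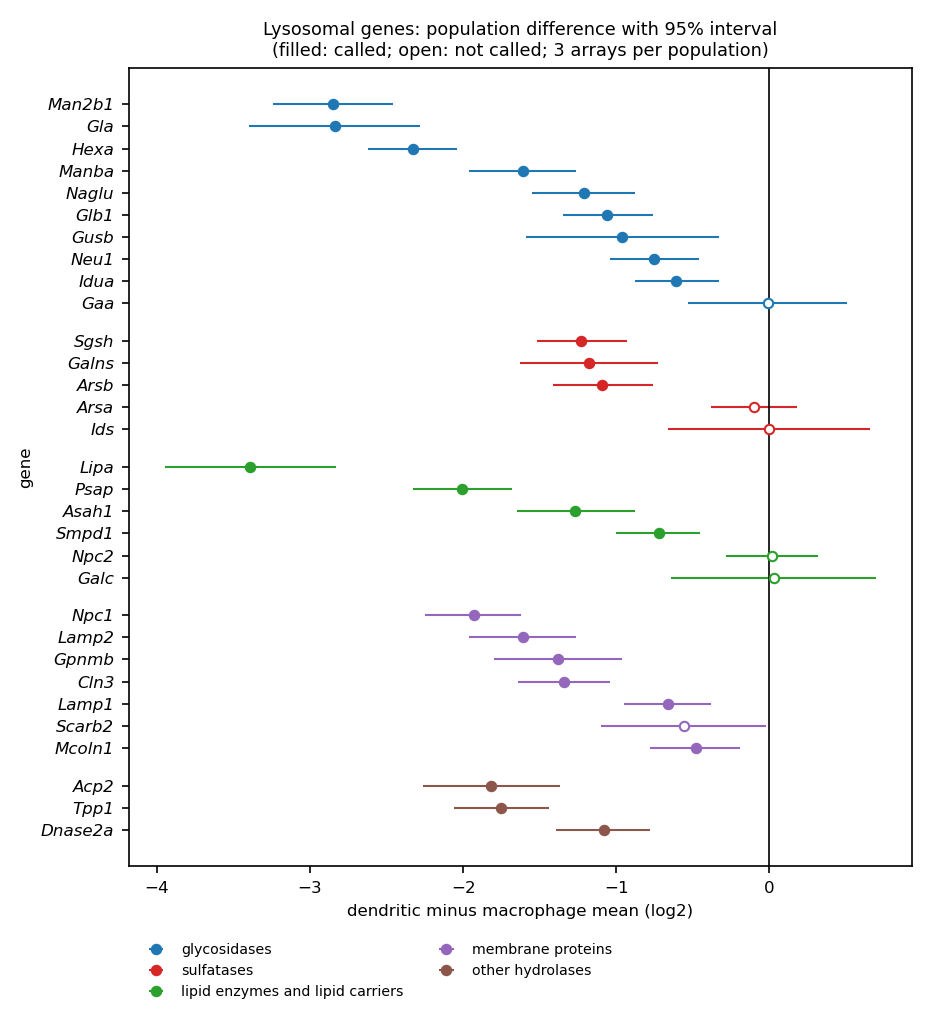
Difference between the dendritic and macrophage means (x axis, log2) of each lysosomal gene, with its 95% interval from limma, grouped and coloured by role (3 arrays per population). Filled points are called and open points are not; 25 filled points lie left of 0, and the open points are Gaa, Arsa, Ids, Npc2, Galc and Scarb2.

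The promoters of the whole set, genes called and not called, were also examined. RefSeq windows of the GRCm38.p6 assembly, from 250 bases before to 50 after an annotated transcript start, were found for 28 of the 31 genes (30 windows) and searched on both strands for CACGTG, the E-box core. Extended by 1 base to TCACGTG, this core is part of the CLEAR element, a motif described in promoters of lysosomal genes and bound by factors of the MiT/TFE family. CACGTG was in a window of 9 of the 28 genes (32.1%), in 8.09% of the 27025 genes in the promoter table and in 9.5% of the 15614 tested genes with a window. Other lysosomal lists held it at shares of 44.4% (4 of 9 cathepsin and legumain genes), 43.5% (10 of 23 genes of delivery and activation), 33.3% (3 of 9 vacuolar ATPase genes), 20.0% (5 of 25 other hydrolases) and 18.8% (6 of 32 other membrane proteins); no test between these lists was made. All 9 of the 28 genes also held TCACGTG, which overlaps it, on either strand. TCACGTG was in 4.29% of genes in the table and 5.35% of tested genes. Among the other lists it was in 2 of 9 cathepsin and legumain genes (22.2%) and 4 of 25 other hydrolases. It was in 5 of 32 other membrane proteins, 10 of 23 genes of delivery and activation and 3 of 9 vacuolar ATPase genes. These TCACGTG shares were not tested against each other either. A match is a description of the letters, not of a bound site. The motif was described in promoters of lysosomal genes, and the 31 were listed as lysosomal. Their share above that of all genes is therefore no test of the difference between the populations.

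Lamp1 had the most matches. The 250 bases before its start (chr8:13158911-13159160, plus strand) are printed 5′ to 3′ with each CACGTG in capitals. Its matches begin 61, 45, 28 and 15 bases before the start. The same length before the start of Lipa (chr19:34527475-34527724, minus strand), which had the largest difference of the 31 genes, is set beside it because it held no match.
Lamp1: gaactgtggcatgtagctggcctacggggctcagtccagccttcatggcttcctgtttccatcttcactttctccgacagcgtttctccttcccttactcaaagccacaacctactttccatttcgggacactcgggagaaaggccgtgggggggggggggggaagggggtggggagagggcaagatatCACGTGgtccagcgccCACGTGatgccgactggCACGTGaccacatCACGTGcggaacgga
Lipa: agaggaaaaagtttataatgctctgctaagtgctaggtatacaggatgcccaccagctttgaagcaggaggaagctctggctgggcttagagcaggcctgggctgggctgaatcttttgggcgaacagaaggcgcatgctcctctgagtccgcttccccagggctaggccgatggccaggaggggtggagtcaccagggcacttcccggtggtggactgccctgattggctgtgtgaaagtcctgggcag

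The matches of the other 8 genes are given with 10 bases on each side, so that the bases next to the core can be compared. Those of Gla begin 227 and 194 bases before the start, those of Cln3 149 and 121 (in 1 of its 2 windows) and those of Mcoln1 71 and 45. Single matches begin 73 bases before the start in Naglu, 48 in Glb1, 140 in Gaa, 29 in Sgsh and 16 in Arsa.
Gla, outer: agcgattgatCACGTGagcatctacg
Gla, inner: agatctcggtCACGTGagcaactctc
Naglu: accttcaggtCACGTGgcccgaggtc
Glb1: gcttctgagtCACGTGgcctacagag
Gaa: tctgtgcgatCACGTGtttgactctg
Cln3, outer: aaccctcaagCACGTGatggaaggct
Cln3, inner: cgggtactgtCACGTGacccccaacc
Mcoln1, outer: tcgcgcttgtCACGTGttcagttcag
Mcoln1, inner: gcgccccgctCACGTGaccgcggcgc
Sgsh: gcctgccgtgCACGTGaccgtgggga
Arsa: aactcagtgtCACGTGttgtctgctc

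Called genes and genes not called both held the motif. It was in 7 of 22 called genes with a window (31.8%) and in 2 of 6 that were not called (33.3%), Gaa and Arsa. By role it was in 4 of 10 glycosidases, 2 of 4 sulfatases, 3 of 6 membrane proteins and none of 5 lipid genes or 3 other hydrolases. Of the 5 genes with the largest differences, a group cut at the value of Psap (-2.01) from these same data, Gla held 2 matches. Man2b1, Hexa, Psap and Lipa had none in these windows. Npc1, the next in size (-1.93), had no window.

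**Figure D2:**
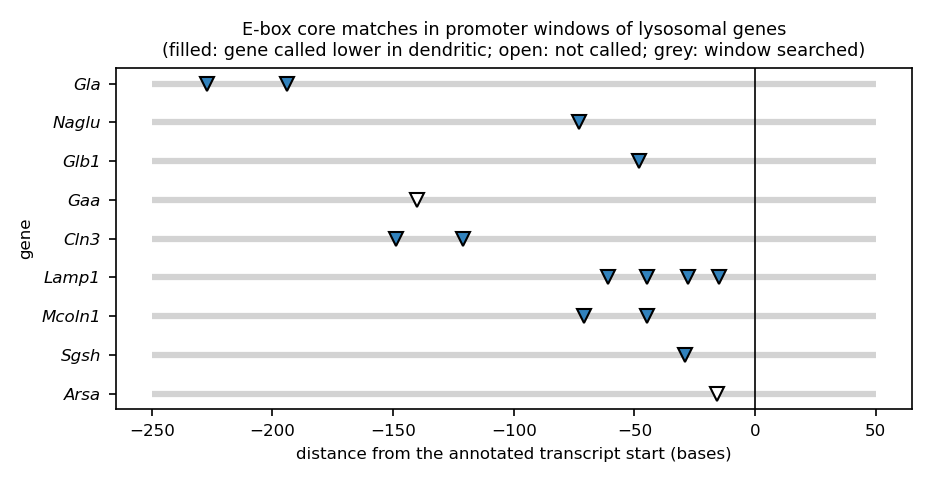
Position of each E-box core match (triangles, first base) relative to the annotated transcript start in the 9 lysosomal genes that hold one (x axis, bases; grey bar, the window searched). Filled triangles mark genes called lower in the dendritic population, open ones the 2 genes not called; Lamp1 has 4 matches within 61 bases of its start.

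Glycosidases cut sugars from glycoproteins, glycolipids and glycosaminoglycans. Of 10, 9 were lower in the dendritic population and none was higher, with a median difference of -1.13. Man2b1, the lysosomal alpha-mannosidase, read 7.78, 7.55 and 7.45 on the dendritic arrays and 10.77, 10.32 and 10.24 on the macrophage arrays. The groups lay 2.46 apart at their nearest arrays, and the difference was -2.85 ± 0.17 (SE), or 7.22-fold lower (limma adjusted p = 5.42e-06). Gla, which removes terminal alpha-galactose and is deficient in Fabry disease, read 5.69, 6.72 and 6.56 in dendritic and 9.29, 9.08 and 9.13 in macrophage cells, a difference of -2.84 ± 0.25 (adjusted p = 4.58e-05). Dendritic replicate 1 was the lowest array of Gla, and the groups lay 2.35 apart. Hexa, the alpha chain of beta-hexosaminidase, read 8.35, 8.60 and 8.47 against 10.89, 10.70 and 10.80, or 5.02-fold lower (-2.33 ± 0.13, adjusted p = 3.22e-06).

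Smaller differences were found for 6 further glycosidases. Manba, the beta-mannosidase that acts after Man2b1 on N-glycans, was lower by 1.61 ± 0.15. Naglu, which trims N-acetylglucosamine from heparan sulfate, was lower by 1.21 ± 0.15, and the beta-galactosidase Glb1 by 1.06 ± 0.13. The sialidase Neu1, which forms a complex with Glb1 and the protective protein Ctsa, was lower by 0.75 ± 0.13, and the iduronidase Idua by 0.61 ± 0.12. Their limma adjusted p was between 8.10e-05 and 0.00592, and in each of these 5 genes the groups did not overlap.

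Gusb, the beta-glucuronidase, stood on the edge of the test. It read 7.94, 7.12 and 7.12 on dendritic and 8.85, 8.27 and 7.95 on macrophage arrays, so that the groups were separated by 0.01 (-0.96 ± 0.28, limma adjusted p = 0.0369). In both populations replicate 1 was the highest. Within replicate numbers the difference was -0.91, -1.15 and -0.83. The call of Gusb was lost without dendritic replicate 2 (limma adjusted p = 0.136), dendritic replicate 3 (0.129), macrophage replicate 1 (0.0946) or macrophage replicate 2 (0.0762), within 0.000846 to 0.136 over the alternatives.

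The glycosidase that was not called is Gaa, the acid alpha-glucosidase that degrades glycogen and is deficient in Pompe disease. It read 6.59, 6.92 and 7.36 in dendritic and 7.33, 6.67 and 6.89 in macrophage cells. The groups overlapped throughout, with a difference of -0.01 and a 95% interval from -0.53 to 0.51 (limma adjusted p = 0.993).

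Sulfatases divided into genes that were lower and genes that were not called. Of 5, 3 were lower by more than 2-fold and the median was -1.09. Sgsh, which removes N-linked sulfate from heparan sulfate, read 5.48, 5.54 and 5.48 in dendritic and 6.92, 6.61 and 6.65 in macrophage cells (-1.23 ± 0.13, limma adjusted p = 0.000153). Galns, which acts on galactose 6-sulfate in keratan sulfate, read 5.41, 5.83 and 5.99 against 6.58, 7.10 and 7.09 (-1.18 ± 0.20, adjusted p = 0.00234). Replicate 1 was the lowest in both groups, and the nearest arrays were still 0.60 apart. Arsb, which removes sulfate from dermatan sulfate, read 5.35, 5.19 and 5.29 against 6.45, 6.53 and 6.12 (-1.09 ± 0.14, adjusted p = 0.000578). It is the only one of the 31 genes with a second probe set, which gave -1.05.

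The sulfatases not called were Arsa, which desulfates the myelin lipid sulfatide, and Ids, which starts heparan and dermatan sulfate breakdown at iduronate 2-sulfate. Arsa read 5.46, 5.46 and 5.59 on dendritic and 5.53, 5.72 and 5.55 on macrophage arrays, a difference of -0.10 with a 95% interval from -0.38 to 0.18 (limma adjusted p = 0.713). Ids read 7.63, 7.02 and 6.53 against 7.51, 7.00 and 6.67. Its means were equal to 2 decimals (difference 0.00, interval -0.66 to 0.66), although it ranged over 1.10 among dendritic and 0.84 among macrophage arrays. The replicate numbers stood in the same order in both populations. Sumf1, the enzyme that activates all sulfatases by converting a cysteine of their active site, differed by -0.17 ± 0.19 and was not called (limma adjusted p = 0.668).

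Lipid enzymes and carriers held the largest difference of the 31 genes. Of 6, 4 were lower and 2 were not called, with a median of -0.99. Lipa, the acid lipase that frees cholesterol and fatty acids from lipoprotein lipids, read 6.46, 5.91 and 5.71 in dendritic and 9.85, 9.03 and 9.36 in macrophage cells. This is 10.5-fold lower (-3.39 ± 0.25, limma adjusted p = 1.67e-05), and the nearest arrays of the groups were 2.57 apart. Psap, the precursor of the saposins that present sphingolipids to their hydrolases, read 9.96, 10.30 and 9.87 against 12.03, 12.12 and 12.00 (-2.01 ± 0.14, adjusted p = 1.50e-05). Asah1, the acid ceramidase, read 7.51, 7.49 and 7.24 against 9.02, 8.57 and 8.46 (-1.27 ± 0.17, adjusted p = 0.000661). The acid sphingomyelinase Smpd1 was lower by 0.72 ± 0.12 (adjusted p = 0.00236), also without overlap.

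Npc2 and Galc showed no difference past the test. Npc2, the soluble cholesterol carrier of the lysosome, read 11.56, 11.32 and 11.23 in dendritic and 11.42, 11.26 and 11.38 in macrophage cells, with a difference of 0.02 and a 95% interval from -0.28 to 0.32 (limma adjusted p = 0.963). Its membrane partner Npc1, to which it hands cholesterol, was by contrast 3.82-fold lower; the difference between the 2 genes was not tested. Galc, which degrades galactosylceramide, read 8.17, 6.91 and 7.15 against 7.63, 7.33 and 7.20. Dendritic replicate 1 was 1.26 above dendritic replicate 2, and the difference of 0.03 had an interval from -0.64 to 0.70.

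**Figure D3:**
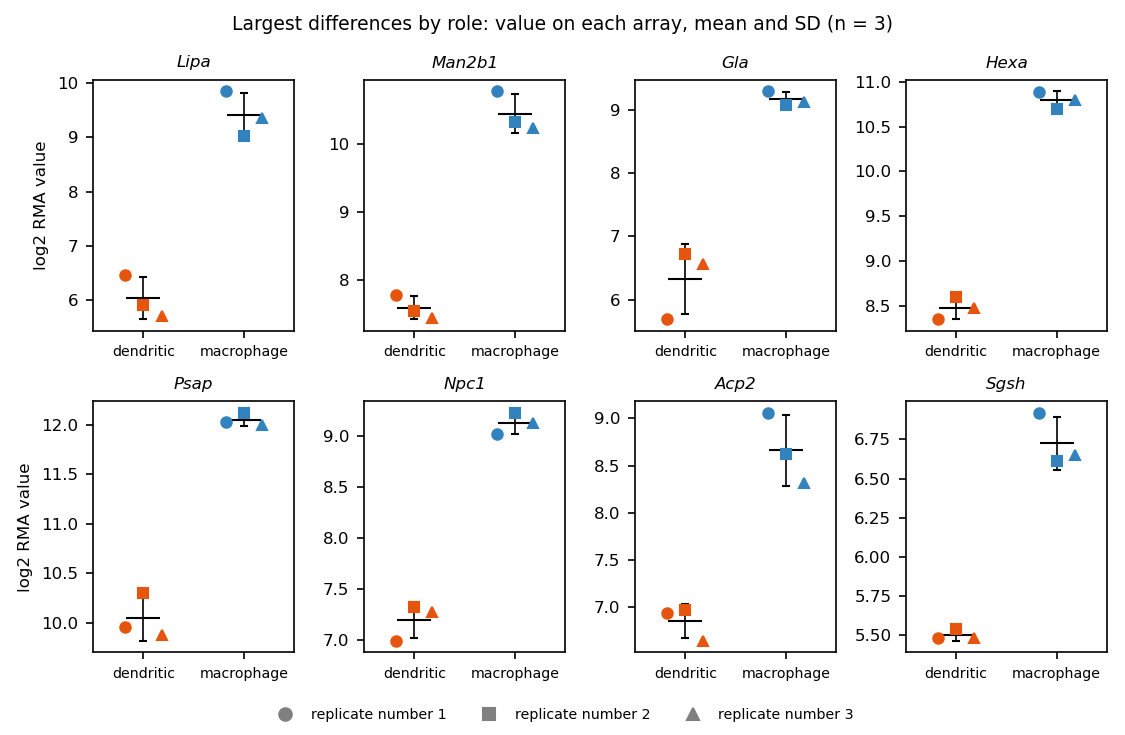
Log2 value of 8 lysosomal genes with large differences in their role group on each array (y axis; the scale differs between panels), with the mean and SD of 3 arrays in black and the marker shape giving the replicate number. In every panel the 3 dendritic arrays (orange) lie below the 3 macrophage arrays (blue); the nearest arrays of Lipa are 2.57 apart and those of Sgsh 1.07.

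Of 7 membrane proteins, 6 were lower and none higher (median -1.34). Npc1, the cholesterol exporter, read 6.99, 7.32 and 7.27 on dendritic and 9.02, 9.23 and 9.13 on macrophage arrays (-1.93 ± 0.14, limma adjusted p = 1.48e-05). Lamp2, a coat glycoprotein with isoforms that serve autophagy, read 8.54, 8.62 and 8.27 against 10.32, 10.03 and 9.92 (-1.61 ± 0.15, adjusted p = 8.35e-05). Gpnmb, a glycoprotein induced in lipid-laden and lysosome-stressed macrophages, read 10.17, 9.52 and 9.83 against 11.36, 11.01 and 11.30 (-1.38 ± 0.18, adjusted p = 0.000613). None of the 3 overlapped between the populations.

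The other coat protein Lamp1 differed less in size than Lamp2, by -0.66 ± 0.13 (1.58-fold, limma adjusted p = 0.00470), a contrast that was not tested itself. Cln3, a lysosomal membrane protein deficient in juvenile Batten disease, was lower by 1.34 ± 0.13 (adjusted p = 9.61e-05). The calcium channel Mcoln1 read 7.51, 7.33 and 7.66 on dendritic and 7.99, 7.92 and 8.04 on macrophage arrays, which did not overlap (-0.48 ± 0.13, adjusted p = 0.0279). The Mcoln1 call was lost without dendritic replicate 2 (limma adjusted p = 0.0956) or macrophage replicate 1 (0.0665), 2 (0.0762) or 3 (0.0977), and with 75th percentile centring (0.0804), within 0.0165 to 0.0977 over the alternatives.

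Scarb2, an abundant lysosomal membrane glycoprotein also known as LIMP-2, was the membrane protein not called. It read 8.94, 8.21 and 8.32 in dendritic and 9.43, 8.69 and 9.01 in macrophage cells (-0.56 ± 0.24, limma adjusted p = 0.152). Dendritic replicate 1 lay among the macrophage arrays, while within each replicate number the dendritic array was the lower one, by 0.49, 0.49 and 0.69. Scarb2 was called when the replicate number entered the fit as a block (limma adjusted p = 0.00938) and when dendritic replicate 1 was left out (-0.78, adjusted p = 0.0288).

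The other 3 hydrolases were all lower in the dendritic population. Acp2, the lysosomal acid phosphatase, read 6.93, 6.97 and 6.64 against 9.06, 8.62 and 8.31 (-1.82 ± 0.20, limma adjusted p = 0.000173). Tpp1, a tripeptidyl peptidase deficient in late infantile Batten disease, read 7.47, 7.73 and 7.85 against 9.37, 9.47 and 9.47 (-1.75 ± 0.14, adjusted p = 2.48e-05). Dnase2a, which digests the DNA of engulfed cells, read 6.52, 6.50 and 6.50 against 7.79, 7.41 and 7.57 (-1.08 ± 0.13, adjusted p = 0.000400). The dendritic arrays of Dnase2a agreed within 0.02.

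Several genes followed the replicate number. In 4 of the 6 genes not called (Ids, Galc, Npc2 and Scarb2) replicate 1 was the highest in both populations, as it was in 12 of all 31 genes (38.7%) against 17.3% of all genes tested. Replicate 1 was the lowest in both for 4 of the 31, against 29.5% of all genes. Of 12 neutrophil markers 9 were also highest on the arrays numbered 1 in both populations, while Elane, Mpo and Prtn3 were highest on replicate 3 among the dendritic arrays. The mean of the 12 was 7.05, 6.23 and 5.92 on dendritic arrays 1 to 3 and 7.57, 6.22 and 6.35 on macrophage arrays 1 to 3. Retnlg, the neutrophil marker with the widest range within each population, read 7.43 and 7.39 on the arrays numbered 1 and 4.25 to 4.33 on the other 4. The part of these cells in the spread of the lysosomal genes was not tested. Without the arrays numbered 1, an alternative chosen after seeing the data, 25 of the 31 genes were lower: Scarb2 was called (limma adjusted p = 0.0222) and Mcoln1 was not (0.0531).

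**Figure D4:**
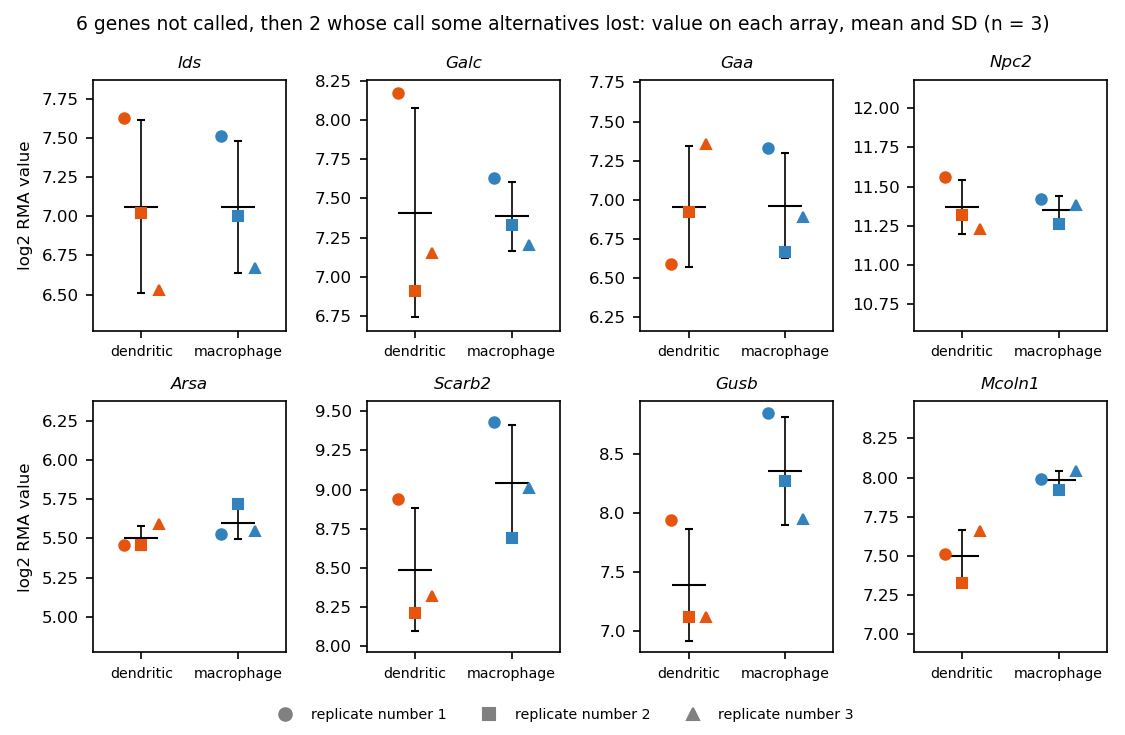
Log2 value on each array (y axis; the scale differs between panels) of the 6 lysosomal genes that were not called and of Gusb and Mcoln1, with the mean and SD of 3 arrays in black and the marker shape giving the replicate number. Replicate 1 (circles) is the highest in both populations for Ids, Galc, Npc2, Scarb2 and Gusb; the dendritic and macrophage means of Ids are equal to 2 decimals.

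Arranged by substrate, most measured genes of each route were lower, against 11.6% of all genes tested. The routes as listed held 8 heparan sulfate, 10 dermatan and keratan sulfate, 12 sphingolipid and 10 glycoprotein genes, and some of each were not measured. Of 7 measured heparan sulfate enzymes 6 were lower. Ids, which acts first on sulfated iduronate, was not called. Besides Idua, Sgsh, Naglu and Gusb, the acetyltransferase Hgsnat was lower by 1.47 ± 0.14 (limma adjusted p = 8.97e-05) and the sulfatase Arsg by 0.56 ± 0.16 (adjusted p = 0.0391). Of 10 measured sphingolipid genes 8 were lower, among them the GM2 activator Gm2a, which lifts the ganglioside out of the membrane for the enzyme that contains Hexa (-2.63 ± 0.13, adjusted p = 1.49e-06). The other two were Arsa and Galc, which act one after the other on sulfatide. Of 7 measured dermatan and keratan sulfate genes 6 were lower, and Ids was not called. In the glycoprotein route 7 of 8 measured genes were lower, and the fucosidase Fuca1 (-0.31 ± 0.16) was not called. These routes share genes with each other and with the 31, so their counts are not independent.

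Lysosomal genes outside the 31 were counted from lists of other hydrolases, other membrane proteins, and delivery and activation. For comparison, 11.6% of all genes tested were called lower and 9.98% higher. Of 29 other hydrolases and cofactors measured, 22 were lower and 1 was higher, with a median of -1.47. The lysozyme Lyz2 (-4.08 ± 0.12) and the acid phosphatase Acp5 (-3.53 ± 0.23) were lowest, the progranulin gene Grn was lower by 2.36 ± 0.12, and the carboxypeptidase Scpep1 was the higher one (0.62 ± 0.13, limma adjusted p = 0.00849). The higher genes of this list numbered 2 with a block for the replicate number, and 2 without dendritic replicate 1. Of 37 other membrane proteins 25 were lower and 1 higher, with a median of -0.75. The amino acid transporter Slc36a1 (-4.10 ± 0.14) and the macrophage marker Cd68 (-3.82 ± 0.26) were lowest, and Laptm4b was higher (1.90 ± 0.37). Cd63, a tetraspanin of late endosomes (0.02, adjusted p = 0.960), and Lamp3, a marker of mature human dendritic cells (0.08, adjusted p = 0.769), were not called, and Lamp3 read 2.85 and 2.77 on average in the populations.

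Genes of delivery and activation did not move in 1 direction. Of 27 measured 6 were lower and 6 higher, with a median of -0.17. Igf2r, the large mannose 6-phosphate receptor that sorts hydrolases to endosomes, was lower by 2.31 ± 0.17 (limma adjusted p = 2.01e-05), and Hps3, of an organelle biogenesis complex, by 1.72 ± 0.25. The sorting adaptor Gga2 (1.90 ± 0.25) and the tethering subunit Vps39 (1.28 ± 0.12) were higher. Gnptab, of the enzyme that adds the mannose 6-phosphate tag, differed by 0.24 ± 0.18 (adjusted p = 0.478).

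Lysosomal proteases and the proton pump were set beside the 31 genes from the same fit. Of 13 cathepsins and legumain 11 were lower and none higher (median -1.43). Ctsl was lower by 3.93 ± 0.17 and Ctsd, the main aspartic protease, by 3.21 ± 0.15. Of 11 genes of the membrane sector of the vacuolar ATPase 7 were lower and none higher (median -0.86). Atp6v0d2 was lower by 5.28 ± 0.31 and Tcirg1 by 2.22 ± 0.16. The shares called lower were 80.6% of the 31 genes, 84.6% of the cathepsins and legumain, 63.6% of the pump genes and 11.6% of all genes tested. No test of a difference between these lists was made.

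**Figure D5:**
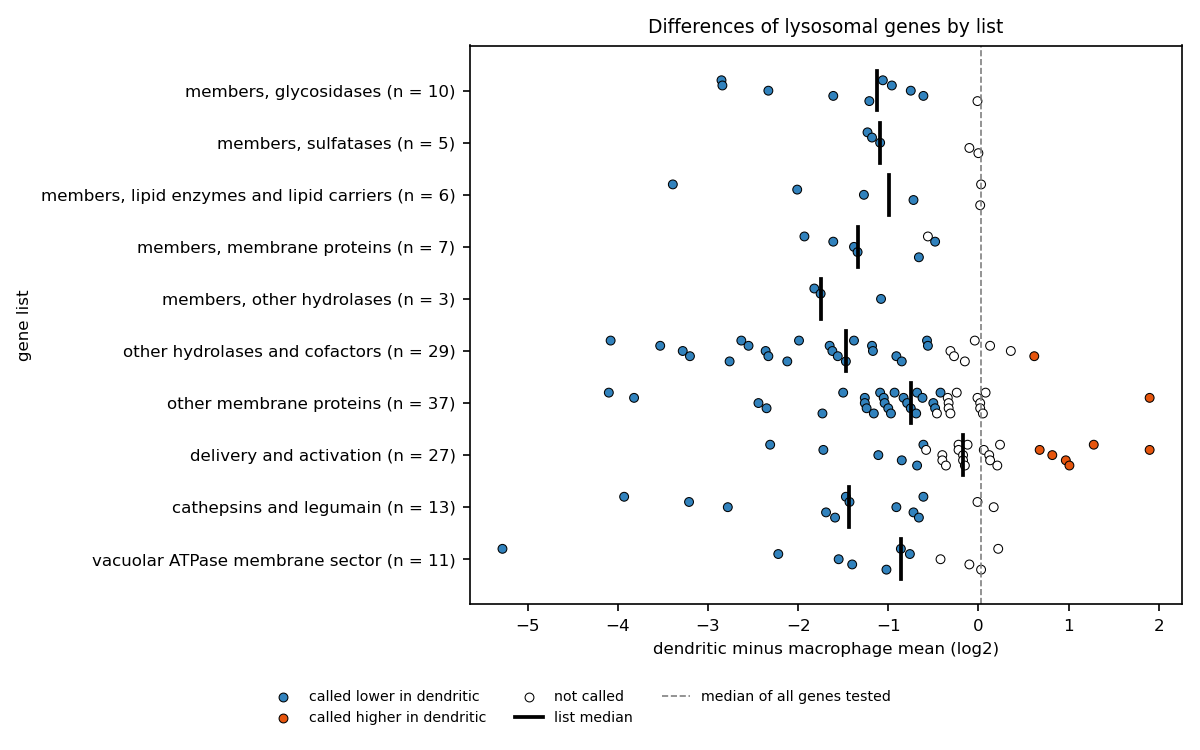
Difference between the dendritic and macrophage means (x axis, log2) of each gene in the 5 role groups and in 5 further lysosomal lists, with the list median as a black bar and the median of all genes tested (0.03) as a dashed line. Blue points are called lower in the dendritic population, orange higher and white not called; delivery and activation has 6 blue and 6 orange points.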

How the data were processed

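The table holds log2 values that the authors deposited for 35556 probe sets on 6 arrays. Per the submitters' processing notes they come from RMA in R 3.0.2. This method corrects background, normalizes arrays by quantiles and summarizes probes, which compresses differences of dim probe sets. Neither the probe set definition nor a genome build is given in the sources used here.

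Names came from the platform annotation (21789 with 1 symbol, 1621 with several, 12146 unnamed), and the brightest probe set on average stood for a gene. limma 3.58.1 in R 4.3.3 (lmFit, eBayes, 2-sided) was fitted on all genes with population as the only term. It was tested on simulated data with independent errors, which does not cover deviations that same-numbered arrays share. The arrays' number limits the precision. Same-numbered arrays deviated together (correlations 0.385, 0.147 and 0.272, all over 0.1), so the numbers in the titles were taken to pair the arrays and a fit with them as a block was added. Number 2 does not stand apart from unmatched pairs, since dendritic replicate 2 correlated with macrophage replicate 3 at 0.155. Dendritic replicate 3 correlated with macrophage replicate 2 at 0.128. Both unmatched pairs passed 0.1, so that threshold does not by itself show pairing. Alternatives were renormalization, centring, level filters, probe set choice, array weights, a variance trend, a threshold of 0.01 and leaving out each array.

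Genes, lists and roles were chosen with earlier results of these data known. The text gives array values for the 3 largest differences of each role and for genes not called or edge cases, and from other lists up to 2 called genes per direction besides a few fixed or illustrative ones. Figures were drawn with matplotlib 3.10.9.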

Additional observations from a re-analysis of the deposited data

How the results depend on the processing

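Under 18 alternatives, 28 of the 31 lysosomal genes stayed on their side of the threshold, 23 of them called lower in each. The exceptions were Gusb, Mcoln1 and Scarb2, whose values stand in the report; at an adjusted p under 0.01 Gusb (0.0369) and Mcoln1 (0.0279) were not called, and adjustment over all probe sets also lost Gusb (0.0975) and Mcoln1 (0.0526). Leaving out each array in turn gave 23 to 26 lower genes, 8 to 9 glycosidases and 5 to 7 membrane proteins, while sulfatases stayed at 3, lipid genes at 4 and other hydrolases at 3. The replicate block gave 26 lower genes, and besides Scarb2 it changed no call among the 31. The higher genes among other hydrolases and cofactors, 1 as reported, numbered 2 with the replicate block, with array weights and without the arrays numbered 1, and 1 to 2 when single arrays were left out; the cause was not tested. Over all genes 1990 were higher at 0.05 and 1320 at 0.01. Scaling moved the median of all genes from 0.03 to between 0.01 and 0.09, and that of the 31 from -1.18 to between -1.20 and -1.13. Dim genes near the array median have compressed differences.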
